A study of Mus musculus with 4 samples.

Results

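Reserve stem cell and regeneration markers of the mouse colon were followed on 4 Agilent mouse arrays, each of which compares 2 labelled RNAs over the whole genome. They are 7 genes, Bmi1, Hopx, Tert, Mex3a, Clu, Ly6a and Anxa1, found on the arrays by the gene name printed for each probe. Together they have 8 of the 41174 gene probes, since Bmi1 has 2 and the others 1 each, and they are 7 of 27341 named genes or transcripts. In the first experiment, colon RNA of Myh11CreErt2/Rspo3 fl/fl mice (Rspo3 KO) was hybridised against that of Myh11CreErt2/Rspo3+/+ littermates (control), 2 weeks after tamoxifen, with 1 mouse per channel and the dyes reversed between the 2 arrays, which gives 2 pairs of mice. R-spondin 3 is a secreted protein that strengthens Wnt signals, and Myh11 drives the Cre recombinase in smooth muscle cells and myofibroblasts, so any loss of Rspo3 is limited to those cells. In the second, epithelial cells of Axin2CreErt2/Rosa26-tdTomato mice, in which a Wnt target gene switches on a red reporter, were sorted 24 h after tamoxifen into tdTomato-positive (Axin2+) and tdTomato-negative (Axin2-) pools from 3 mice. The 2 arrays of this sort carry the same 2 pools with reversed dyes and count as 1 replicate, so that no test across replicates was possible. All mice were C57BL/6 males, 6 to 8 weeks old, and all received tamoxifen at 4 mg per 25 g body weight, the controls and the Axin2- cells included. Whether the colon RNA came from distal colon, whole colon or colon epithelium differs between the labels and the methods.

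The first 4 genes were described as marks of reserve stem cells, crypt cells that divide rarely and can replace the fast-cycling Lgr5+ stem cells at the crypt base. Bmi1 is a subunit of Polycomb repressive complex 1, Hopx is a small homeodomain protein that does not bind DNA, Tert is the catalytic subunit of telomerase, and Mex3a is an RNA-binding protein found in slowly cycling Lgr5+ cells. The other 3 mark the repairing epithelium. Clu encodes clusterin, a secreted chaperone of rare "revival" stem cells. Ly6a encodes Sca-1, a GPI-anchored surface protein of fetal-like and injured epithelium, which blood, vascular and stromal cells also carry. Anxa1 encodes annexin A1, a phospholipid-binding protein that acts on formyl peptide receptors and dampens inflammation. None of the 7 is specific to the crypt, and in bulk RNA fewer cells of a type and less RNA per cell cannot be told apart.

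The probes are 60 bases long, and their sequences define what each value measures. The starts of the probes are shown for Hopx and Mex3a, which differed in the sort, and for both Bmi1 probes, which did not behave alike. The first 30 bases of each are given from 5′ to 3′, and the Anxa1 probe is given whole because it crosses a splice junction of the transcript.
Bmi1 probe 1: gtacttacgatgcccagcagcaatgactgt
Bmi1 probe 2: tggtgaatttaactcatttttctagacttt
Hopx: ctttggattttaatgaaagatgatgtggga
Mex3a: gcaaagtaaaggtgggaaataaaacagacc
Anxa1: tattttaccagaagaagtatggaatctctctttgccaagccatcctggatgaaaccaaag
On mm9, the build of the array files, Bmi1 probe 1 lies at chr2:18605306-18605365 and probe 2 at chr2:18607987-18608046, both on the plus strand. The Hopx probe lies at chr5:77516460-77516519 on the minus strand and the Mex3a probe at chr3:88345168-88345227 on the plus strand. The Anxa1 probe covers 1514 bases of the minus strand, chr19:20448248-20449761, so its 60 bases come from more than 1 exon. The Tert probe is at chr13:73786429-73786488 and the Clu probe at chr14:66600151-66600210, both on the plus strand, and the Ly6a probe at chr15:74825553-74825612 on the minus strand. Exon and UTR annotation of mm9 was not used here.

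Between 53.1% and 60.3% of gene spots per channel were well above background, the software's own test of a spot against its surroundings. No spot of the 7 genes carried an outlier flag, and none was saturated. On the Rspo3 KO arrays 510 and 443 gene spots were flagged, with a median log2 signal of 14.91 and 15.20 against 6.62 and 6.80 for the others, which removed bright epithelial genes such as Krt19 and S100a6 from that comparison. The targeted gene could not be checked, because neither of the 2 Rspo3 probes was well above background on the first array and only 1 was on the second, with a log2 ratio of 0.17 there. Rspo3 KO is therefore used as the name of the labelled channel. Lgr5 was well above background in both control channels and in neither Rspo3 KO channel. Its log2 ratios were -1.28 and -2.61, with a 95% interval of the mean from -2.71 to -1.18 (adjusted p = 0.0990, limma). With Rspo3 KO signals set no lower than the dimmest level counted as above background, the mean difference was 3.81-fold. The RNA of this experiment held stroma, since 6 of 6 fibroblast and 5 of 6 smooth muscle markers were measured in it, whereas 2 and 3 were measured in the sorted cells. Epithelial markers were measured for 4 of 6 and 6 of 6 genes. Axin2 itself was higher in the Axin2+ pool by 1.35 and 1.30 on the log2 scale.

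In Rspo3 KO colon, Clu was 1.85-fold lower than in control in the mean and close to that in both pairs. Ly6a was 1.40-fold higher in the mean of both pairs, Mex3a was lower mainly in 1 pair, and Bmi1, Hopx and Anxa1 differed little or in opposite directions. Tert was not well above background on the first array and was not counted as measured. Of the 6 measured members, 0 passed an adjusted p of 0.05 in limma's test of the log2 ratio against 0, against 0.241% of 15377 genes, and 1, Clu, had an unadjusted p under 0.05, against 4.65%. By the study's kind of rule, a mean past 1.5-fold with the same sign in both pairs, Clu was called lower, against 2.47% of all genes lower and 4.32% in either direction. The 2 pairs hardly resembled each other across genes, with a Pearson correlation of 0.03 over the 15377 genes, which are not independent replicates, and 44.2% of genes had the same sign in both pairs, as did 4 of the 6 members. Lower in both pairs were 3 members, against 23.9% of genes, and higher in both pairs was 1, against 20.3%. With median centring 2 members were lower and 0 higher in both pairs, against 1442 and 1222 of the 15377 genes.

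**Figure D1:**
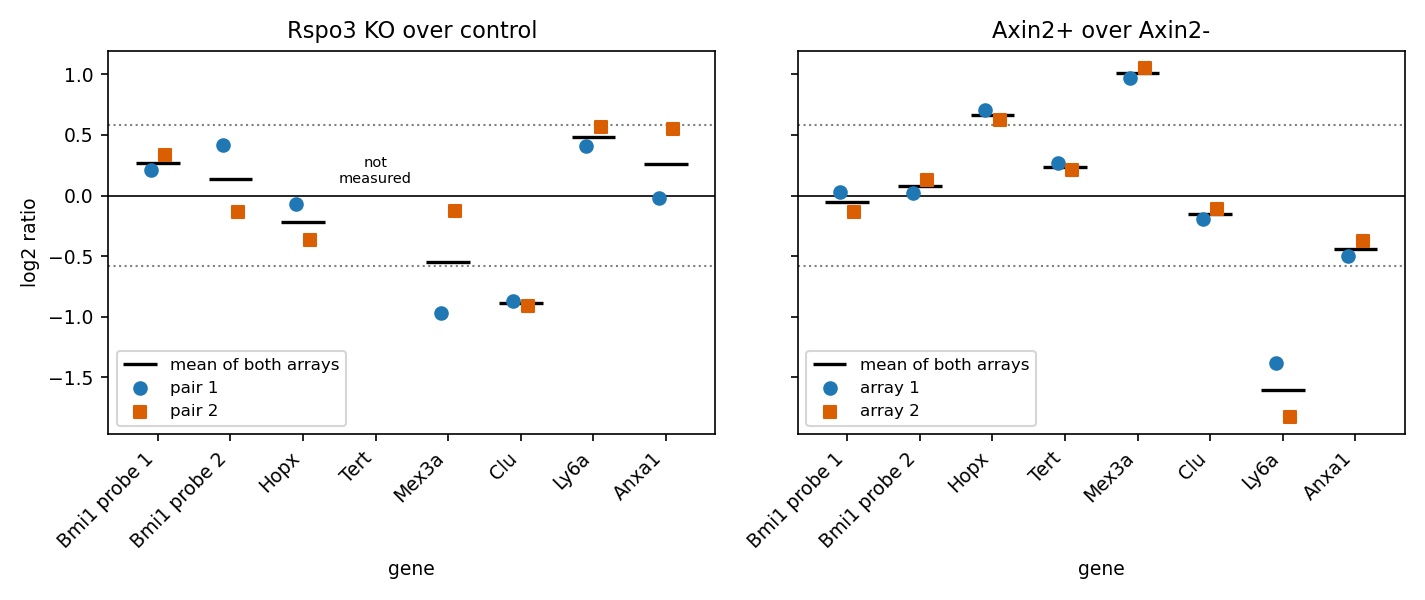
Log2 ratio (vertical axis) of each probe of the 7 genes on the 2 Rspo3 KO arrays (left, 1 pair of mice each) and the 2 dye-swapped Axin2 arrays (right, the same RNA on both). Circles and squares are single arrays, bars their mean and dotted lines 1.5-fold. Clu lies near -0.89 in both pairs on the left, and Mex3a, Hopx and Ly6a lie past a dotted line on both arrays on the right.

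Among the reserve stem cell genes, Mex3a had a log2 ratio of -0.97 in pair 1 and -0.13 in pair 2. Its channel signals on the log2 scale were 8.14 and 7.61 in the control mice and 7.17 and 7.48 in the Rspo3 KO mice. The Rspo3 KO signal lay below that of its control in both pairs, but the difference in pair 2 was small. The mean ratio was -0.55 ± 0.59 (SD, n = 2), with a 95% interval in the limma fit from -1.18 to 0.08 and an adjusted p of 0.9997. This probe is dim. Its mean moved to -0.14 when the background was fitted to all spots, where pair 1 gave -0.16 and pair 2 stayed at -0.13. In the ratios of the scanner's software the mean was -0.78, past 1.5-fold with the same sign.

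Hopx was bright in every channel, at 11.09 and 11.43 in the control mice and 11.02 and 11.06 in the Rspo3 KO mice. The log2 ratios were -0.07 and -0.37, a mean of -0.22 ± 0.21 (SD, n = 2), and the interval from -0.76 to 0.32 includes 0. Bmi1 probe 2, the brighter one, read 7.52 and 8.17 in control and 7.94 and 8.03 in Rspo3 KO, so that both Rspo3 KO values lay between the control values. Its ratios were 0.41 and -0.14, and those of Bmi1 probe 1 were 0.21 and 0.33. The probes thus agreed in pair 1 and took opposite signs in pair 2, and neither passed the test (adjusted p = 0.9998 for each, limma with every probe by itself). For Bmi1 the interval ran from -0.44 to 0.71.

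Of the regeneration genes, Clu had signals of 10.92 and 10.56 in the control mice and 10.05 and 9.66 in the Rspo3 KO mice. Each Rspo3 KO mouse lay below its own control by about as much. The log2 ratios were -0.87 and -0.91, with a mean of -0.89 ± 0.03 (SD, n = 2), a 95% interval from -1.42 to -0.36 and an adjusted p of 0.408 in limma. Among all genes measured, Clu stood at percentile 0.897 from the low end. The alternatives that average both pairs gave means from -0.93 to -0.78 and adjusted p-values from 0.244 to 1. The likeness of the pairs depended on the scaling, since the ratios were -0.65 and -0.91 with the background fitted to all spots and -0.11 and -1.54 with median centring.

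Markers of other cell types differed in the same samples. Of the B cell markers, 4 of 4 measured were lower in both pairs, and their summed linear signal was 5960.1 and 3518 in control against 1259 and 1143 in Rspo3 KO. Ms4a1 (CD20) fell by 2.51 on the log2 scale (adjusted p = 0.0127, limma) and Ighm, the heavy chain of IgM, by 1.93 (adjusted p = 0.0249, limma). Each passed in 8 of 12 alternatives, failing with the background fitted to all spots, median centring, no dim filter and the mean over probes. Among the 8, the 2-fold threshold does not enter the test and the value table repeats the software's ratios, so neither adds information. T cell markers were lower in both pairs in 4 of 4 cases, with summed signals of 831 and 592 in control against 387 and 444, and enteroendocrine markers in 3 of 4 (1 of 4 with median centring), with 36154 and 41491 against 33401 and 28076. Summed signals of macrophage, fibroblast, smooth muscle and endothelial markers, given below, were higher in Rspo3 KO in both pairs. The part of any of these cells in the lower Clu signal was not tested.

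Ly6a read 11.94 and 11.73 in control and 12.35 and 12.30 in Rspo3 KO, with the Rspo3 KO mouse above its control in both pairs. The log2 ratios were 0.41 and 0.57, a mean of 0.49 ± 0.11 (SD, n = 2) with an interval from -0.05 to 1.02, and the adjusted p was 0.9997. With median centring the Ly6a ratios were 1.22 and -0.14, so the pairs then took opposite signs. Anxa1 read 13.56 and 13.47 in control and 13.54 and 14.02 in Rspo3 KO. It was higher in pair 2 (0.54) and level in pair 1 (-0.02), so its mean of 0.26 ± 0.40 (SD, n = 2) does not exceed the spread between pairs. Of the macrophage markers, 5 of 6 were higher in both pairs (2 of 6 with median centring), with summed signals of 7115 and 5278 in control against 8361 and 6884 in Rspo3 KO. Fibroblast markers summed to 84152 and 90914 in control against 102071 and 114281, with 2 of 6 higher in both pairs, and smooth muscle markers to 80974 and 93131 against 96504 and 96574, with 4 of 5. Endothelial markers summed to 4427 and 3822 in control against 4464 and 5239, with 2 of 7 higher in both pairs, and neutrophil markers to 609 and 1283 against 1659 and 927, with 0 of 2 in 1 direction. With median centring, 0 of 6 fibroblast, 0 of 5 smooth muscle and 1 of 7 endothelial markers were higher in both pairs. Summed signals of B cell, T cell and enteroendocrine markers, given above, were lower in Rspo3 KO in both pairs. The part of any of these cells in the Ly6a and Anxa1 signals was not tested.

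In sorted epithelium, 3 members differed past 1.5-fold. Mex3a was 2.01-fold and Hopx 1.58-fold higher in Axin2+ cells, while Ly6a was 3.04-fold lower. Anxa1 was 1.35-fold lower, Tert 1.18-fold higher, and Clu and Bmi1 differed by less. By the 1.5-fold rule with the same sign on both arrays, 2 of 7 members were called higher and 1 lower, where 7.86% of 15887 genes were called higher and 6.92% lower, 14.8% in all. All 7 kept 1 sign on both arrays by their brightest probe, as did 82.7% of genes. Both arrays hold the same RNA, so agreement between them says nothing of other mice.

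For Mex3a, the Axin2+ pool read 8.70 and 8.41 and the Axin2- pool 7.73 and 7.36 on the log2 scale. Ratios of 0.97 and 1.05 averaged to 1.01, which placed the gene at percentile 98.4 of all genes. For Hopx, the Axin2+ pool read 12.12 and 12.17 and the Axin2- pool 11.42 and 11.54. Its ratios of 0.70 and 0.62 were just past the 1.5-fold line, at a mean of 0.66, and without the loess step, with only the median of each array centred, they became 1.74 and -0.78 and the call was lost. Mex3a kept its sign and its call there and in every other scaling tried, with means from 1.01 to 1.70.

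Tert was measured in the sorted cells only. The Axin2+ pool read 7.42 and 7.19 and the Axin2- pool 7.15 and 6.99, close to the background level of the arrays. The ratios were 0.27 and 0.21. For Bmi1 probe 2 the pools read 7.66 and 7.81 (Axin2+) and 7.64 and 7.68 (Axin2-), which gave ratios of 0.02 and 0.13. Bmi1 probe 1 had ratios of 0.03 and -0.14. Neither probe of Bmi1 separated the pools.

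Ly6a had the largest difference of the 7 genes. The Axin2- pool read 13.03 and 13.39 and the Axin2+ pool 11.65 and 11.56. The ratios of -1.38 and -1.83 averaged to -1.60, at percentile 0.950 from the low end. Because of the family's similar sequences, the Ly6a probe was aligned with the other Ly6 probes. The closest, that of Ly6c1, had 33 identical of 40 aligned bases (82.5%) and a longest shared run of 10 bases. Ly6c1 itself had ratios of -0.52 and -0.62. Only probes were aligned, not the other Ly6 transcripts, so the part of shared sequence in the Ly6a signal was not tested. Endothelial markers were measured for 3 of 7 genes and B cell markers for 5 of 5, the latter with a summed signal of 437 and 477 in Axin2+ and 532 and 567 in Axin2- cells.

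Anxa1 read 12.38 and 12.29 in the Axin2- pool and 11.89 and 11.92 in the Axin2+ pool. With ratios of -0.50 and -0.38 and a mean of -0.44 it stayed inside 1.5-fold. Clu was dim in the sorted cells, at 7.53 and 7.55 in the Axin2- pool and 7.33 and 7.44 in the Axin2+ pool, with ratios of -0.19 and -0.11. The same probe read between 9.66 and 10.92 in the colon RNA. Tissue, slide and preparation differ together between the 2 experiments, so this gap has no test and its sources cannot be told apart.

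**Figure D2:**
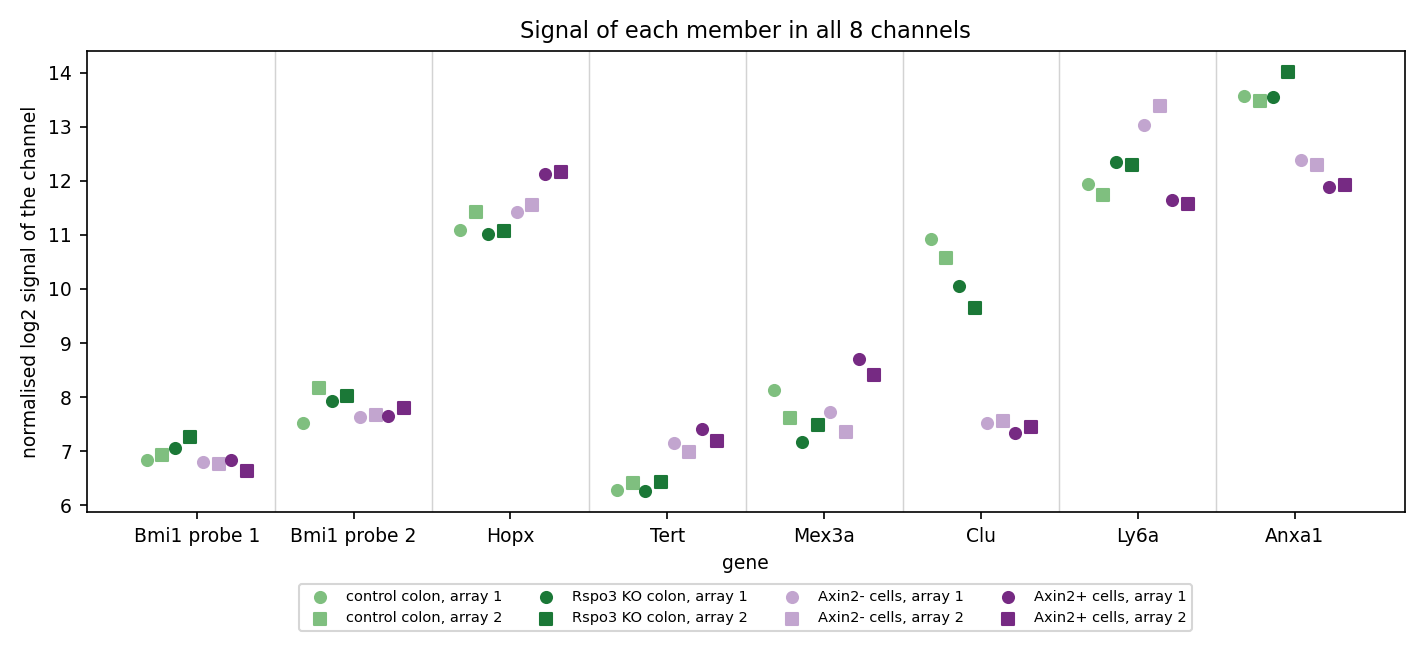
Normalised log2 signal (vertical axis) of each probe in all 8 channels, grouped by gene; colours are the 4 kinds of RNA, circles the first and squares the second array of an experiment. Clu was brighter in every colon channel (9.66 to 10.92) than in every sorted pool (7.33 to 7.55), and Ly6a was brightest in the Axin2- pool. Heights of different probes are not comparable.

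The means of both experiments are set side by side. Mex3a and Hopx had positive means in the sort (1.01 and 0.66) and negative means in Rspo3 KO colon (-0.55 and -0.22). Ly6a and Anxa1 had negative means in the sort (-1.60 and -0.44) and positive means in Rspo3 KO colon (0.49 and 0.26). Clu had -0.15 in the sort and -0.89 in Rspo3 KO colon, and Bmi1 had 0.08 and 0.14. Within Rspo3 KO colon none of these values but that of Clu passed even the fold rule. The experiments used different mice and share no samples.

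**Figure D3:**
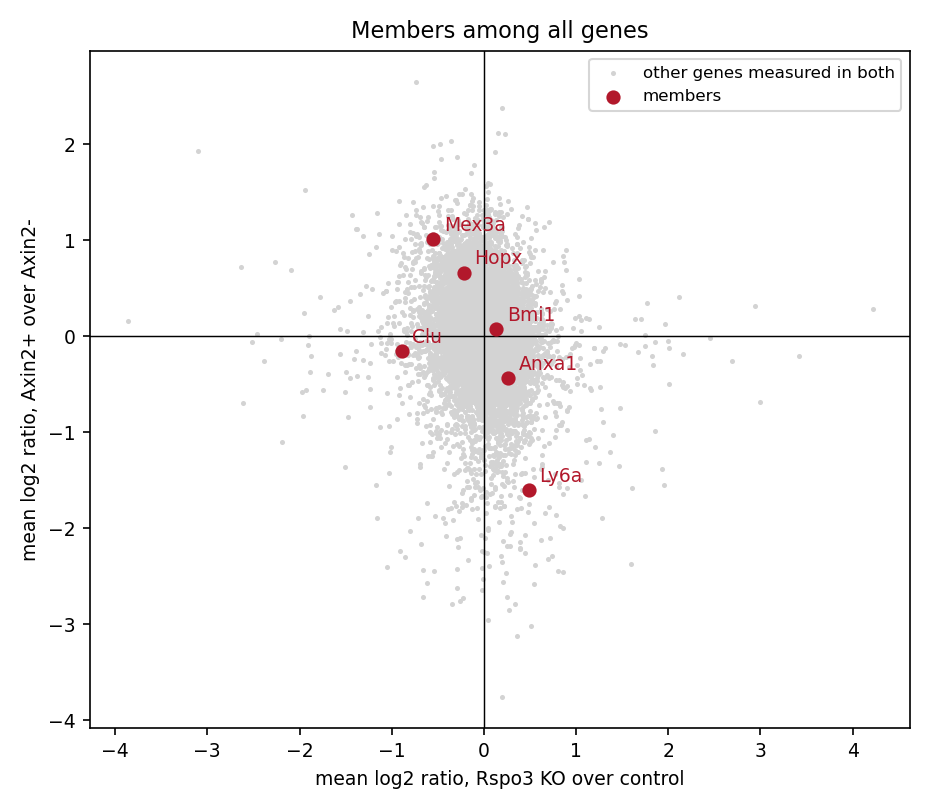
Mean log2 ratio in Rspo3 KO over control colon (horizontal axis) against that in Axin2+ over Axin2- cells (vertical axis) for all genes measured in both (grey) and the 6 members among them (red). Mex3a and Hopx lie in the upper left, Ly6a and Anxa1 in the lower right, and Clu far to the left near 0 on the vertical axis.

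The genes related to each member were counted from lists. Of 8 other genes described as reserve stem cell marks, 7 were measured in the sort. Lrig1, an inhibitor of ErbB receptors, was 1.22 higher on the log2 scale in Axin2+ cells and the transcription factor Sox9 0.69 higher. Dclk1, a kinase of tuft cells, was lower (-1.20), as was the RNA-binding protein Msi1 (-0.89). The list thus split, with a median of -0.37, against -0.0049 for all genes. Called were 2 higher and 3 lower, against 7.86% and 6.92% of all genes, and 0 and 1 with median centring. In Rspo3 KO colon, 1 of 7 was called, the keratin Krt15 (-0.86, adjusted p = 0.734), against 4.32% of all genes. With the background fitted to all spots, 0 of 7 were called.

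Of 13 other fetal-like and injury genes, 10 were measured in the sort and 10 of 10 were lower in Axin2+ cells on both arrays, as was Ly6a, where 41.7% of all genes were lower and 41.1% higher on both. This count became 8 in the software's ratios, 9 without background correction and 6 with median centring, and the median of the list was negative in each. Called lower were 6, against 6.92% of all genes, and the median was -0.70. Among them were the annexins Anxa8 (-1.82) and Anxa3 (-1.22), the calcium-binding S100a6 (-1.0) and the interleukin-1 receptor antagonist Il1rn (-0.88). In Rspo3 KO colon the list went no single way. The median over 11 genes was 0.23, and 0 passed the adjusted p. In both pairs 5 were higher and 2 lower, against 20.3% and 23.9% of all genes. Msln, mesothelin, was called higher (1.02) and the alarmin Il33 lower (-0.74). With median centring, 0 of the 11 were called, and 0 were higher or lower in both pairs.

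In the Ly6 family, 4 of 4 measured relatives were lower in Axin2+ cells on both arrays, 3 of 4 in the software's ratios and with median centring. Ly6c2 had a mean of -1.83 and Ly6i of -1.11. In Rspo3 KO colon 3 of 5 were higher in both pairs, against 20.3% of all genes, and 0 of 5 with median centring. The mean was 0.48 for Ly6c2 and 0.71 for Ly6i, while Ly6d had -1.40 (adjusted p = 0.266). Ly6i was past 1.5-fold as reported, but 0 of 5 were called higher with median centring or with the background fitted to all spots. Of the other annexins and formyl peptide receptors, 8 were measured in the sort and 3 called lower, against 6.92% of all genes. These were Anxa8 and Anxa3 as above and Anxa2 (-0.74). In Rspo3 KO colon Anxa13, an annexin of intestinal epithelium, had ratios of -1.32 and -1.42 (mean -1.37, adjusted p = 0.0904). Fpr1, a receptor of annexin A1 on myeloid cells, had 0.60 and 0.99 (mean 0.79, adjusted p = 0.609), and Fpr2 had 0.52 and 0.55.

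Among the partners of Bmi1 and Tert, 0 of 15 measured genes of Polycomb repressive complex 1 and 0 of 11 of telomerase and shelterin were called by either rule in Rspo3 KO colon, where 4.32% of all genes passed the fold rule and 0.241% the adjusted p. In the sort, where 7.86% of all genes were called higher, so were 3 of 15 Polycomb genes (1 with median centring). Among them were the chromobox gene Cbx6 (0.95) and the polyhomeotic gene Phc3 (0.82). Of 13 telomerase and shelterin genes 1 was called higher, close to the share of all genes, and the list's median was 0.12. This was Gar1, a protein of the telomerase particle (0.61). Of the 3 relatives of Mex3a, 1 was called higher, Mex3c (0.61). With median centring, 0 telomerase and shelterin genes and 0 Mex3 relatives were called. Targets of Yap and Taz, the factors that drive the fetal-like programme, showed no common direction, with a median of 0.09 over 6 genes in the sort and 0.15 over 9 in Rspo3 KO colon. Ccn1 was higher in Axin2+ cells (1.08) and the ectonucleotidase Nt5e lower (-2.13).

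**Figure D4:**
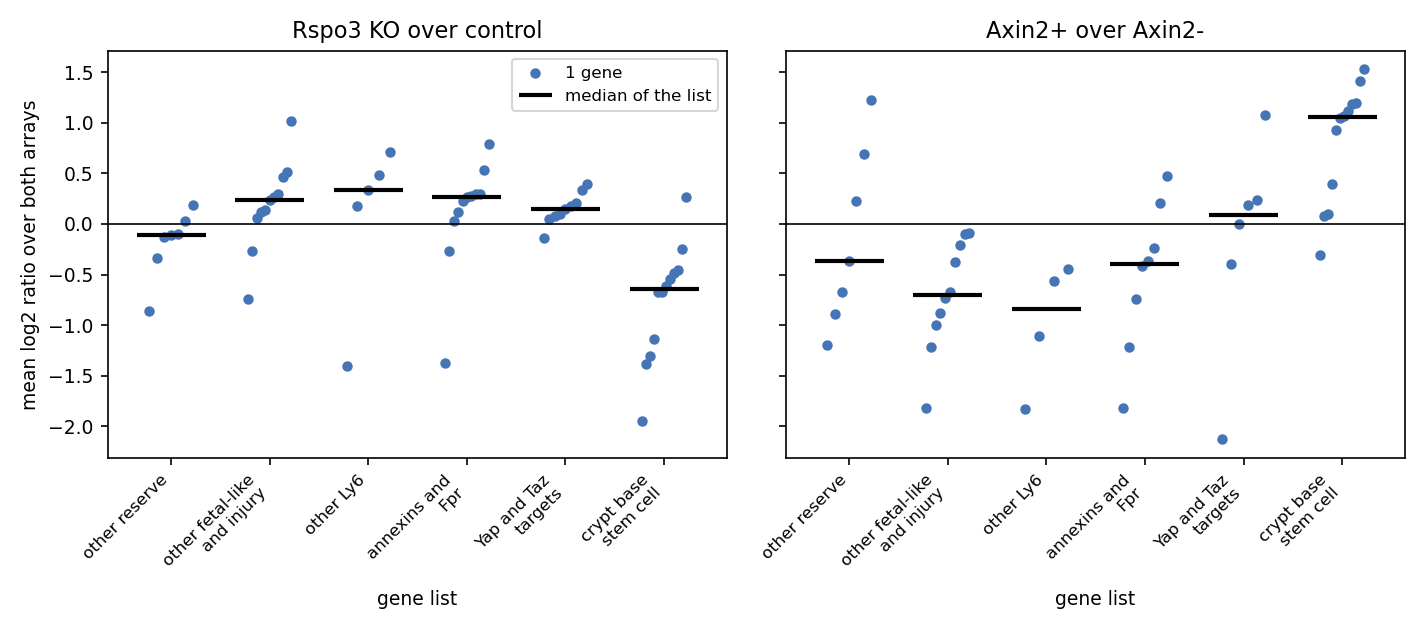
Mean log2 ratio over both arrays (vertical axis) of each measured gene (points) of 6 gene lists (horizontal axis), with the median of each list (bar), in Rspo3 KO over control (left) and Axin2+ over Axin2- (right). In the right panel every fetal-like and Ly6 gene lies below 0 and most crypt base stem cell genes above it; in the left panel the crypt base list has a median of -0.64.

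Among genes of the crypt base stem cell, 10 of 12 were lower in both pairs of Rspo3 KO colon, against 23.9% of all genes (6 of 12 with median centring), and 7 were called lower, with a median of -0.64. After Lgr5 the lowest were Smoc2 (-1.39), Ephb3 (-1.31) and Cdca7 (-1.14), and 0 of 12 passed the adjusted p. In the sort 8 of 12 were called higher, 2 with median centring, with a median of 1.06, next to which Mex3a lay at 1.01 and Hopx at 0.66. Proliferation genes were called higher in 7 of 8 cases, 2 with median centring, with a median of 0.72, and had a median of -0.12 in Rspo3 KO colon with 0 of 8 called. Of the surface enterocyte genes 6 of 7 were called lower in the sort, with a median of -2.63 (0.35 over the 3 measured in Rspo3 KO colon), and of the enteroendocrine markers 4 of 5, with a median of -2.11. Of all genes, 2.47% were called lower in Rspo3 KO colon, and 7.86% were called higher and 6.92% lower in the sort. The part of these cell types in the members' differences between the pools was not tested.

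For the 4 members past 1.5-fold in either experiment, the nearest genes over the 4 log2 ratios were sought by Euclidean distance. Each member was compared with the 13627 other genes measured in both experiments. Clu lay closest to Ttr (distance 0.21), 9130023H24Rik (0.21) and Galt (0.22). Ttr had -0.93 and -0.77 in the Rspo3 KO pairs and -0.05 and -0.08 in the sort. Ly6a lay closest to Abcg2 (0.31), Aplp1 (0.33) and its relative Ly6c2 (0.35), and Abcg2 had 0.42 and 0.67 in the pairs and -1.40 and -1.54 in the sort. Closest to Mex3a were Echdc2 (0.11), an unnamed transcript (0.13) and Hnrnpa1l2-ps2 (0.22), and closest to Hopx the transcripts S57425 (0.09) and NAP028872-1 (0.09) and the gene Timmdc1 (0.10). With so few arrays, such likeness is a description of these 4 values.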

How the data were processed

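RNA of 2 Rspo3 KO and control mouse pairs and of 1 pair of Axin2+ and Axin2- pools was hybridised on 4 arrays. Per the file headers, the authors ran Agilent Feature Extraction (11.5.1.1) on the scans, which gave the deposited intensity of every spot in both dyes, its local background intensity, and a log10 ratio (Cy5 over Cy3) already corrected for background and dye. The error score of each log10 ratio, as deposited, comes from the error model of that software and served as a weight in 1 alternative. The series' value table repeats the deposited log10 ratios, with differences of at most 1.66e-09 on the log2 scale. The software's p-value columns, deposited per array, were not used. RNA was extracted with spin columns per the methods or with Trizol per the labels. In the study, ratios were combined with error weights in Resolver, which was approximated as an alternative.

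Here, limma (version 3.58.1, R 4.3.3) subtracted background (normexp, offset 50), with 66 and 6 spots of uneven background on the Rspo3 KO arrays kept out of that step, and log2 ratios were brought to a common scale by loess within arrays. Control spots and outlier spots were dropped. Positive ratios mean higher in Rspo3 KO or in Axin2+. Each gene took the value of its brightest probe, provided that on each array of the experiment either dye was well above background. Channel signals were scaled between arrays (Aquantile) and can carry dye bias. Of 41174 probes, RefSeq gave a name to 27748 through the accession, to 5536 through the symbol and to 462 through a synonym, while 7428 kept their array name. Rspo3 KO ratios were tested against 0 (lmFit and eBayes, Benjamini-Hochberg over 15377 genes, 1 residual and 6.76 prior degrees of freedom). The method was also run on simulated data with the spread that limma had estimated and known changes larger than the members' ratios. Its power for changes of the members' size was not tried. With 2 pairs, precision is limited by the arrays, and how the mice were paired is not given in the sources used here. Each experiment lies on 1 slide, so slide and experiment cannot be told apart.

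The members and the gene lists were chosen with earlier results of these data known. The text names all members, Rspo3, Lgr5 and Axin2 as checks, up to 4 genes of a list (those past the test, then those past 1.5-fold with 1 sign, by size) and the 3 nearest genes of each member past 1.5-fold; 1 gene that the rule names is not reported here, and Krt19, Ly6c1, Ly6d, Fpr2 and single cell type markers were named after their values were seen. Alternatives were, for the ratios, those of the software, the value table and the error-weighted mean; for the background, none, offset 16 or a fit on all spots; for the scale, median centring; for the genes, no dim filter, a filter in both dyes, averaging over probes or each probe by itself; and leaving out each array or a 2-fold threshold. Added after seeing the data were the array files' own gene names and keeping outlier spots.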

Additional observations from a re-analysis of the deposited data

How the results depend on the processing

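The test of the Rspo3 KO ratios against 0 is itself paired, since each ratio compares the 2 mice of 1 array. As a further alternative to it, no paired analysis was possible because a replicate block would leave no residual degrees of freedom. Across the alternatives, 0 members passed the adjusted p in Rspo3 KO colon. Clu stayed lower in each. Bmi1 changed direction, to -0.039 with the background fitted to all spots and to -0.14 without pair 1, and so did Anxa1, to -0.018 without pair 2. Members past 1.5-fold there numbered 2 in the software's ratios, the value table, the error-weighted ratios and with an offset of 16, where Mex3a joined Clu, and 0 at 2-fold; leaving out either pair gave 1 to 2.

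Genes past the adjusted p numbered 37 as reported, 130 in the software's ratios and the value table, 127 with an offset of 16, 71 without background correction, 8 with median centring, 5 with the mean over probes, 1 with the background fitted to all spots and 0 without a filter on dim probes. Genes called higher and lower in Rspo3 KO colon numbered 285 and 380 as reported, 587 and 891 in the software's ratios and the value table, 540 and 841 with error weights, 173 and 189 with the background fitted to all spots, 84 and 99 at 2-fold, and 689 to 1253 and 867 to 1150 with 1 pair left out. In the sort they numbered 1249 and 1099 as reported, 2744 and 2443 in the software's ratios and the value table, 2706 and 2415 with error weights, 499 and 591 with median centring and 270 and 401 at 2-fold. The cause of these shifts was not tested, apart from the higher threshold and, with 1 pair left out, the rule that then needs no second pair. Fitting the background to all spots differed from the reported setting only in letting in the spots of uneven background (66 and 6). It moved the members' ratios in pair 1 only. The highest local Cy3 background was 65528 on the array of pair 1 and 37 on that of pair 2. With median centring, which leaves the dye effect of each array in place, signs often differed between the arrays of a dye swap. Keeping outlier spots changed no call of a member. With 1 array left out there is no residual degree of freedom and no test.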
